A study of Mus musculus with 11 samples.

Results

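The genes examined here were 9 transcripts of the T helper 1 (Th1) programme in mouse CD4+ T cells: Tbx21, Ifng, Cxcr3, Stat4, Il12rb1, Il12rb2, Il18r1, Il18rap and Runx3. They were taken by symbol, and all 9 were found among the 35814 symbols of the count table. The RNA came from CD4+ T cells of the kidney, sorted from C57BL/6 mice 2 days after renal ischemia–reperfusion injury (IRI), an operation in which the blood supply of the kidney is clamped and then released. The design asked whether deleting IKK1 or NIK, kinases of the NFκB pathway, in CD4+ T cells changed their transcriptome. There were 3 libraries of CD4cre controls, which carry the Cre recombinase alone and whose genotype is labelled WT, 5 libraries of CD4IKK1 knockouts and 3 libraries of CD4NIK knockouts. Cre was driven by the CD4 promoter in all 3 groups, the floxed gene was Chuk (IKK1) or Map3k14 (NIK), and all mice were adult males that had undergone IRI. Sham-operated mice were not analysed here, so every value below is a value after injury. Libraries are named by group and biological replicate number.

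Th1 cells are the CD4+ T cells that secrete interferon-γ. Interleukin-12, bound by a receptor of the Il12rb1 and Il12rb2 chains, activates STAT4, and STAT4 together with T-bet, the transcription factor encoded by Tbx21, opens the Ifng locus. T-bet also drives Cxcr3, the chemokine receptor that brings these cells to inflamed tissue, while RUNX3 acts with T-bet at Ifng and interleukin-18, bound by the Il18r1 and Il18rap chains, adds to interferon-γ secretion. Interferon-γ-producing CD4+ T cells are known to infiltrate the kidney after ischemic injury.

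The libraries differed widely in how much T cell RNA they held, and this has to be read beside every value of the Th1 genes. Library totals were even, from 15751632 to 25737046 estimated counts, so that 3 counts, the floor used here, corresponded to 0.115 to 0.211 CPM (counts scaled to a common library size). The summed counts of the T cell receptor (TCR) constant genes Trac, Trbc1 and Trbc2 were 35820, 22741 and 12558 in CD4cre replicates 1 to 3. They were 60124, 111648 and 90324 in CD4NIK, and 41, 868, 11413, 5277 and 5644 in CD4IKK1. CD4IKK1 replicates 1 and 2 stood apart, with under 1000 TCR counts each. In bulk samples, fewer T cells and less of a transcript per T cell cannot be told apart, so each Th1 gene is given both as CPM and per 1000 TCR constant counts. On the CPM scale the targeted transcripts overlapped between knockout and control. Chuk was at 22.0 ± 9.67 CPM (SD, n = 3) in CD4cre and 20.4 ± 4.55 CPM (SD, n = 5) in CD4IKK1. Map3k14 was at 17.9 ± 2.78 CPM (SD, n = 3) in CD4cre and 22.5 ± 8.98 CPM (SD, n = 3) in CD4NIK. Per 1000 TCR counts neither overlapped. Map3k14 was lower in CD4NIK (3.73 to 5.61) than in CD4cre (14.1 to 23.4), as were 72.7% of all genes tested. Chuk was higher in every CD4IKK1 library (median 104) than in every CD4cre library (median 25.9), as were 33.3% of all genes tested. The table sums over exons, so it does not show whether the floxed exons were missing. Markers of other cells moved as well. Summed over 8 neuronal genes, the level was 2600 to 3140 CPM in CD4cre, 3320 to 3830 CPM in CD4IKK1 and 916 to 1820 CPM in CD4NIK, and over 14 macrophage, monocyte and dendritic cell genes it was 453 to 1920, 107 to 267 and 658 to 1010 CPM. The part of these markers in the results below was not tested.

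Promoters are shown for the members on which the comparisons turn: Ifng and Cxcr3, which spanned the widest ranges, and Il18r1 and Il18rap, neighbours on chromosome 1 that followed different patterns. The annotation (GRCm39) places the pair on the plus strand with 14507 bases between them. Each run holds the 250 bases before the most upstream RefSeq start and the first 30 bases after it, 5′ to 3′ on the gene's strand, in GRCm38.p6. The positions are chr10:118440796-118441075 for Ifng (plus strand), chrX:101734118-101734397 for Cxcr3 (minus strand), chr1:40465302-40465581 for Il18r1 and chr1:40515112-40515391 for Il18rap (both plus strand). Capitals mark matches to TTCNNNGAA, the GAS motif to which STAT factors bind, to GGTGTG, the T-box motif, or to TGTGGT, the RUNX motif, on either strand (a match on the opposite strand reads ACCACA for RUNX).
Ifng: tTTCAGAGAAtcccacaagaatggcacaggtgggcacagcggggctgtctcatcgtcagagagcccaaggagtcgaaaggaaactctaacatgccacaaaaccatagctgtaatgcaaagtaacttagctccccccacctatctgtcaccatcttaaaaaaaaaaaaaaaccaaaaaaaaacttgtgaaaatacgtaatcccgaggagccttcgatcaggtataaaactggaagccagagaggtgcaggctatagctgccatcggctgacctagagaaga
Cxcr3: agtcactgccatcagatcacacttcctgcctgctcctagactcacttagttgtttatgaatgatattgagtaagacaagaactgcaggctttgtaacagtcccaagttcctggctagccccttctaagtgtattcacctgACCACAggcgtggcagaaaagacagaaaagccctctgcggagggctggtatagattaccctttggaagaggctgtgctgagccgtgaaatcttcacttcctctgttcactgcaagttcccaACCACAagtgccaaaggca
Il18r1: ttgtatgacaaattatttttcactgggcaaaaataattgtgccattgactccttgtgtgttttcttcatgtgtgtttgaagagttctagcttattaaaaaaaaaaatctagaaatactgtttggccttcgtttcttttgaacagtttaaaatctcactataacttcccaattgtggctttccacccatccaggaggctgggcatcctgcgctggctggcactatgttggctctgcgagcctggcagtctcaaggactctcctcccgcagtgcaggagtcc
Il18rap: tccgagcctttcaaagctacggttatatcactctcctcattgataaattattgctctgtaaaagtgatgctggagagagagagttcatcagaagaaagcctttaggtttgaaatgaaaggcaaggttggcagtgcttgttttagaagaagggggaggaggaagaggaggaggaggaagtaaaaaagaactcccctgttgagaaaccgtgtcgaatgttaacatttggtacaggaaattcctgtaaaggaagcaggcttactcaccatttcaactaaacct

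RefSeq promoters were matched for 8 of the 9 members, the exception being Il12rb1. Over the 300 bases searched in each (250 before and 50 after the start), Ifng held 1 GAS match, TTCAGAGAA, at position -249 from its start. Cxcr3 held 2 RUNX matches, at -110 and 12. Il12rb2 held 1 GAS match, TTCTCAGAA, at -123, Runx3 held 2 RUNX matches at -134 and -126, and Il18rap held 1 RUNX match at 32, beyond the bases printed. No match to these letters lay in the windows of Tbx21, Stat4 or Il18r1, and none of the 8 windows held the T-box letters. Of 32851 RefSeq promoters of the same length, 8.3% held the GAS letters, 19.0% the T-box letters and 16.8% the RUNX letters, so a match in a single window, none of which overlapped another motif's, is a description of its sequence and not a binding site.

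Interferon-γ transcripts were the most abundant of the members per length and among the most variable. Per kilobase of the annotated canonical transcript, Ifng ranked first in every group, with 168 ± 116 CPM per kb (SD, n = 3) in CD4cre, 20.4 ± 19.0 (SD, n = 5) in CD4IKK1 and 751 ± 125 (SD, n = 3) in CD4NIK. Cxcr3 came second in each group (31.4 ± 16.6, 6.81 ± 9.65 and 334 ± 75.5 CPM per kb) and Tbx21 followed (15.0 ± 4.90, 3.08 ± 2.28 and 78.9 ± 19.3 CPM per kb). The ranges of Ifng and Cxcr3 did not overlap in CD4cre (90.7 to 301 against 14.9 to 48.1 CPM per kb) or in CD4NIK (636 to 883 against 249 to 394), but did in CD4IKK1. Stat4, Il18r1, Il18rap, Il12rb1 and Il12rb2 lay in a lower band of 1.06 to 3.91 CPM per kb in CD4cre, where Stat4 (2.03 to 6.55) and Il18r1 (2.36 to 3.71) were not separated by their spread, nor Il12rb1 from Il12rb2 (0.632 to 1.84 against 0.697 to 1.65). Runx3 was last in every group, at 0.296 ± 0.0364 CPM per kb in CD4cre. The plot of log2 CPM by library shows the same 3 groups gene by gene.

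**Figure D1:**
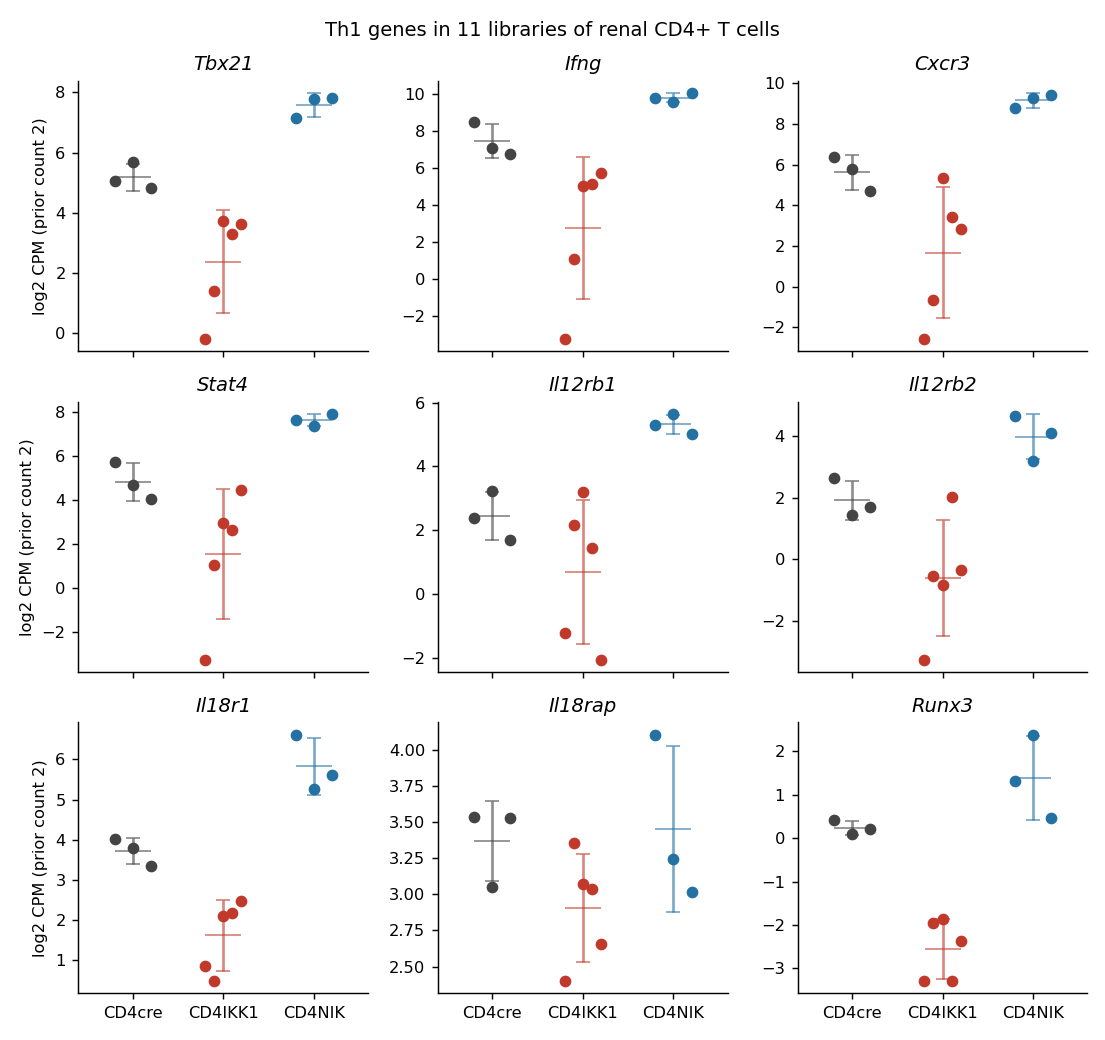
Level of each of the 9 Th1 genes in the 11 libraries, as log2 CPM with a prior count of 2 (vertical axis, scaled per gene), in CD4cre (grey, n = 3), CD4IKK1 (red, n = 5) and CD4NIK (blue, n = 3), with replicates from left to right in number order. Horizontal lines are group means and bars are ± 1 SD of the log2 values. For 8 of the 9 genes all 3 CD4NIK points lie above the 8 others, while the groups overlap for Il18rap.

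On the CPM scale the transcription factor gene Tbx21 was lowest in CD4IKK1 and highest in CD4NIK. Its counts were 857, 1053 and 560 in CD4cre replicates 1 to 3, 12, 49, 230, 195 and 274 in CD4IKK1 replicates 1 to 5, and 2529, 4494 and 3225 in CD4NIK replicates 1 to 3. The 3 groups did not overlap, the highest CD4IKK1 library (13.1 CPM) lying below the lowest CD4cre library (28.0 CPM) and the highest CD4cre library (51.2 CPM) below the lowest CD4NIK library (141 CPM). Relative to the TCR constant genes this order was not present. Per 1000 TCR counts Tbx21 was at 23.9, 46.3 and 44.6 in CD4cre, at 293, 56.5, 20.2, 37.0 and 48.6 in CD4IKK1 and at 42.1, 40.3 and 35.7 in CD4NIK. All 3 groups overlapped on this scale, and the 1 high value, CD4IKK1 replicate 1, rested on 12 Tbx21 counts over 41 TCR counts.

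Stat4, the signal transducer of the interleukin-12 receptor, spread more within groups. It had 1371, 522 and 327 counts in CD4cre, 0, 37, 133, 121 and 483 in CD4IKK1, and 3482, 3322 and 3368 in CD4NIK. CD4IKK1 replicate 5 (21.7 CPM) lay above the lowest CD4cre library (16.4 CPM), and the CD4NIK libraries (163 to 237 CPM) lay above all others. Relative to TCR counts the values ran from 23.0 to 38.3 in CD4cre, from 11.7 to 85.6 in the CD4IKK1 libraries with any Stat4 count and from 29.8 to 57.9 in CD4NIK, with overlap between all groups. In CD4IKK1 replicate 1, where no Stat4 count was found, 3 counts would be 73.2 per 1000 TCR counts, so a level as high as that of CD4NIK was not detectable in that library. The annotated span of Stat4 overlaps 4 genes on the opposite strand and 1 on the same strand, and the library preparation is not stated to mark strand. Whether these genes share reads with Stat4 was not examined.

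Runx3, which acts with T-bet at Ifng, was near the limit of detection. Its counts were 32, 20 and 21 in CD4cre, 0, 3, 3, 0 and 2 in CD4IKK1 and 43, 104 and 18 in CD4NIK. Every CD4IKK1 library was at or under the floor of 3 counts, while every library of the other groups was above it. Against that floor, taken in the shallowest CD4IKK1 library, Runx3 was at least 5.65-fold lower in CD4IKK1 than in CD4cre and at least 15.2-fold lower than in CD4NIK on the CPM scale. It was at 0.879 to 1.67 per 1000 TCR counts in CD4cre and 0.199 to 0.931 in CD4NIK. The floor itself is 73.2 and 3.46 per 1000 TCR counts in CD4IKK1 replicates 1 and 2 and 0.263 to 0.569 in replicates 3 to 5, so only those 3 libraries had the depth to show a level like that of CD4cre. The span of an annotated antisense gene, Gm16224, overlaps that of Runx3, and whether they share reads was not examined.

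The cytokine gene Ifng had 9445, 2773 and 2189 counts in CD4cre, 0, 38, 571, 716 and 1180 in CD4IKK1 and 15896, 15631 and 15140 in CD4NIK. The groups did not overlap on the CPM scale, at 110 to 364 CPM in CD4cre, 0.0 to 53.0 CPM in CD4IKK1 and 768 to 1070 CPM in CD4NIK. Among the controls replicate 1 was the high one, at 364 CPM against 135 and 110 CPM. Per 1000 TCR counts Ifng was at 264, 122 and 174 in CD4cre and at 264, 140 and 168 in CD4NIK, ranges that nearly coincide. In CD4IKK1 it was listed at 0 in replicate 1 and was at 43.8, 50.0, 136 and 209 in replicates 2 to 5, so replicates 2 and 3 lay below every CD4cre and CD4NIK library and replicates 4 and 5 lay within their range. The span of Gm49751, annotated on the same strand, overlaps that of Ifng, and whether they share reads was not examined.

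The chemokine receptor gene Cxcr3 was the member that stood out on both scales. It had 2161, 1109 and 516 counts in CD4cre, 1, 10, 715, 216 and 158 in CD4IKK1 and 7731, 12643 and 9669 in CD4NIK. On the CPM scale CD4NIK (431 to 682 CPM) lay above CD4cre (25.8 to 83.2 CPM), and CD4IKK1 replicate 3 (40.6 CPM) lay within the CD4cre range while the other CD4IKK1 libraries (0.064 to 10.7 CPM) lay below it. Per 1000 TCR counts Cxcr3 was at 60.3, 48.8 and 41.1 in CD4cre, at 24.4, 11.5, 62.7, 40.9 and 28.0 in CD4IKK1 and at 129, 113 and 107 in CD4NIK. All 3 CD4NIK libraries were above all 8 others, the first CD4IKK1 value resting on 1 count.

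The interleukin-12 receptor chains were low in number. Il12rb1, the chain shared with the interleukin-23 receptor, had 132, 189 and 63 counts in CD4cre, 5, 83, 160, 53 and 3 in CD4IKK1 and 695, 1012 and 459 in CD4NIK. Il12rb2, the chain specific to interleukin-12, had 159, 53 and 62 counts in CD4cre, 0, 11, 8, 80 and 15 in CD4IKK1 and 447, 184 and 243 in CD4NIK. For both chains CD4IKK1 overlapped CD4cre and CD4NIK lay above both. Per 1000 TCR counts Il12rb1 was at 3.69 to 8.31 in CD4cre, 0.531 to 122 in CD4IKK1 and 5.08 to 11.6 in CD4NIK, and Il12rb2 at 2.33 to 4.94, 0.0 to 15.2 and 1.65 to 7.43, with every pair of groups overlapping. The 2 chains did not keep a fixed proportion: the count of Il12rb2 per count of Il12rb1 ranged from 0.28 to 1.2 in CD4cre, from 0.182 to 0.643 in CD4NIK and, where both were above 3 counts, from 0.05 to 1.51 in CD4IKK1. The annotated span of Il12rb2 overlaps that of Serbp1 on the opposite strand, and whether the 2 genes share reads was not examined.

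The interleukin-18 receptor chains, encoded side by side, had different patterns. Il18r1, the ligand-binding chain, had 415, 283 and 203 counts in CD4cre, 27, 25, 74, 90 and 121 in CD4IKK1 and 1749, 776 and 688 in CD4NIK. Il18rap, the accessory chain needed for signalling, had 298, 168 and 228 counts in CD4cre, 81, 193, 146, 163 and 138 in CD4IKK1 and 306, 191 and 113 in CD4NIK. Il18r1 separated all 3 groups on the CPM scale (10.2 to 16.0, 1.31 to 5.44 and 38.1 to 97.6 CPM), whereas Il18rap overlapped between all of them (8.16 to 11.5, 5.19 to 10.1 and 7.97 to 17.1 CPM). Over the 11 libraries the SD of log2 CPM was 0.46 for Il18rap and 1.95 for Il18r1, against 1.92 to 4.05 for the other 7 members. The count of Il18r1 per count of Il18rap, a ratio that does not depend on library size, was 1.39, 1.68 and 0.89 in CD4cre, 0.333, 0.13, 0.507, 0.552 and 0.877 in CD4IKK1 and 5.72, 4.06 and 6.09 in CD4NIK. The 3 groups did not overlap in this ratio, although the CD4IKK1 and CD4cre ranges ended close to each other, at 0.877 and 0.89. Since Il18rap stayed within 5.19 to 17.1 CPM, the ratio largely follows Il18r1 on the CPM scale. It therefore cannot be told apart from the differences in TCR counts. How many other pairs of genes separate the groups in this way was not tested.

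Il18rap also had counts where TCR transcripts were few. In CD4IKK1 replicate 1, with 41 TCR counts, it had 81 counts, and in replicate 2, with 868 TCR counts, it had 193. Per 1000 TCR counts it was therefore at 1976 and 222 in those libraries and at 12.8, 30.9 and 24.5 in the others, against 8.32, 7.39 and 18.2 in CD4cre and 5.09, 1.71 and 1.25 in CD4NIK. Il18r1 in CD4IKK1 replicate 1 (27 counts, 658 per 1000 TCR counts) and Tbx21 in the same library (12 counts) were likewise high for its TCR counts. Il12rb1 was at 122 per 1000 TCR counts in replicate 1 (5 counts) and at 95.6 in replicate 2 (83 counts), against 0.531 to 14.0 in the other CD4IKK1 libraries, and its 4.35 CPM in replicate 2 lay within the CD4cre range of 3.15 to 9.19 CPM. Summed neuronal markers were at 3320 to 3830 CPM in CD4IKK1, as given above, and the part of cells other than T cells in these Il18rap counts was not tested. The plot of CPM against TCR CPM shows this for 4 members.

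**Figure D2:**
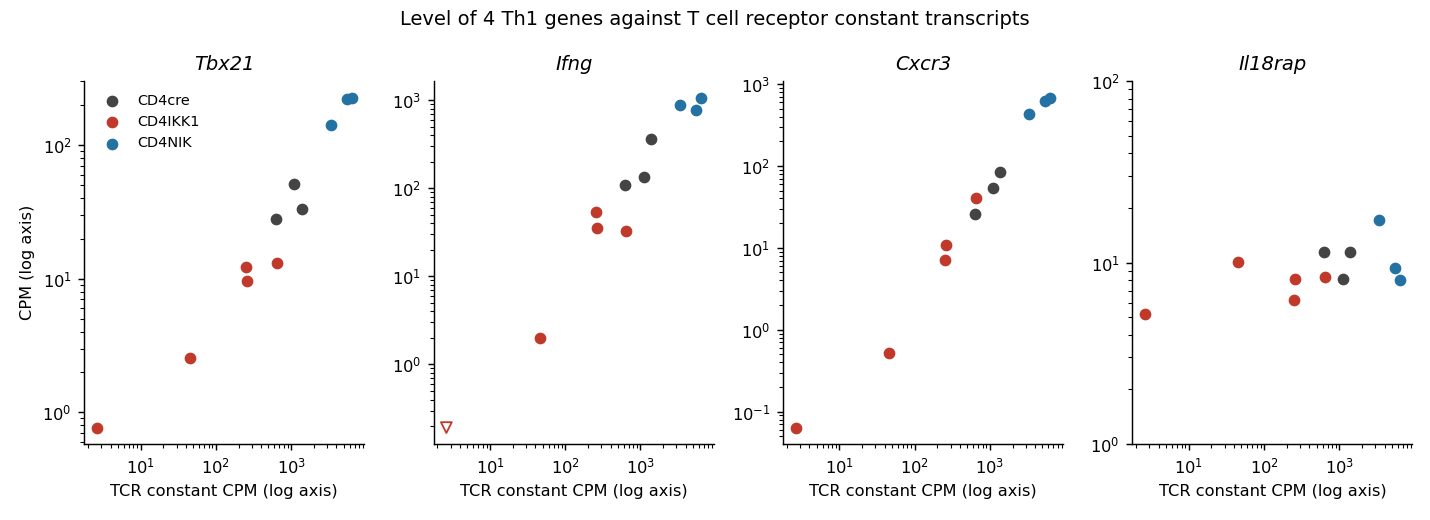
CPM of Tbx21, Ifng, Cxcr3 and Il18rap (vertical, log axis) against summed CPM of Trac, Trbc1 and Trbc2 (horizontal, log axis) in the 11 libraries, coloured by group. An open triangle marks a library with no count, drawn at the level of 3 counts, and the lowest Cxcr3 point is 1 count. The first 3 genes are low where TCR CPM is low and high where it is high, while Il18rap stays between 5.19 and 17.1 CPM.

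CD4IKK1 was compared with CD4cre to ask what loss of IKK1 changed. All 9 Th1 genes had lower fitted levels in CD4IKK1, and none passed the threshold. A gene was called when its false discovery rate (FDR) in edgeR's quasi-likelihood F test, adjusted over all genes tested, was under 0.05 and its change exceeded 2-fold. Of 15653 genes tested, 0 were called (0.0%, smallest FDR 0.0543), while 2591 had an unadjusted p under 0.05, 1393 of them lower in CD4IKK1. Ifng had the largest difference above the floor, with a log2 fold change of -3.04 ± 1.41 (SE, FDR 0.347) and a mean of 24.6 ± 22.9 CPM (SD, n = 5) in CD4IKK1 against 203 ± 140 CPM (SD, n = 3) in CD4cre. Il18r1 was at -1.95 ± 0.52 (FDR 0.123) and Tbx21 at -2.28 ± 0.72 (FDR 0.178). Cxcr3 (-2.21 ± 1.43), Stat4 (-2.08 ± 1.20), Il12rb2 (-1.78 ± 1.15) and Il12rb1 (-0.82 ± 1.04) had FDRs of 0.443 to 0.781, and Il18rap was at -0.45 ± 0.37 (FDR 0.608). Single libraries moved some of these. Without CD4cre replicate 1, Ifng was at -2.31, Cxcr3 at -1.76, Stat4 at -1.48 and Il12rb2 at -1.31. Cxcr3 was at -3.55 and Il12rb1 at -1.64 without CD4IKK1 replicate 3, Il12rb2 at -3.18 without CD4IKK1 replicate 4, Stat4 at -3.02 without CD4IKK1 replicate 5, and Il12rb1 at -0.32 without CD4cre replicate 2, all still uncalled. For Runx3 the bound given above stands in place of a fitted value, at FDR 0.201. The median log2 difference over the members was -2.08, with Runx3 at its bound as well, beside 0.02 over all genes tested. General T cell transcripts were at similar values, the 7 TCR and CD3 genes all lower with a median of -2.13 and 10 other T cell markers all lower with a median of -2.04. Of the kidney tubule markers 5 of 5 tested were lower, with a median of -2.91. Of the macrophage, monocyte and dendritic cell markers 11 of 13 tested were lower and 2 higher, with a median of -1.74. The neuronal markers were all higher, 8 of 8, with a median of 0.32. None of the genes in these lists was called by edgeR. In the order given, 0, 1, 2, 6 and 5 of them had an unadjusted p under 0.05, as did 16.6% of all genes.

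Group ranges separated where the test did not call. On the CPM scale 4 members, Tbx21, Ifng, Il18r1 and Runx3, were lower in every CD4IKK1 library than in every CD4cre library, as were 8.44% of all genes tested. With DESeq2, 29 genes were called higher and 457 lower (0.185% and 2.92% of those tested), and 2 members were among the lower ones, Tbx21 (log2 fold change -2.29, FDR 0.0127) and Il18r1 (-1.96, FDR 0.0122). Across the 6 edgeR and DESeq2 alternatives that kept all replicates or left out both libraries under 1000 TCR counts, the FDR of Tbx21 ranged from 0.0127 to 0.313 and that of Il18r1 from 0.0122 to 0.299.

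Relative to TCR constant counts the members no longer differed in 1 direction between CD4IKK1 and CD4cre. The log2 fold changes were -1.06 for Ifng, -0.56 for Cxcr3, 0.22 for Stat4, 0.84 for Il12rb2, 1.19 for Tbx21, 3.01 for Il12rb1, 3.39 for Il18r1 and 5.31 for Il18rap, with SEs of 1.97 to 2.79. Without CD4IKK1 replicate 1, the library with 41 TCR counts, Tbx21 was at 0.079, Il18r1 at 0.45, Il12rb1 at 2.38 and Il18rap at 2.68. Without both libraries under 1000 TCR counts, CD4IKK1 replicates 1 and 2, these were at -0.12, 0.16, 0.54 and 1.01, in the same order. Runx3 is given no value, its CD4IKK1 counts being at the floor. None was called by edgeR, and 0 of all genes tested were (0.0%), although 10924 had an unadjusted p under 0.05. The median over all genes was 6.16, and DESeq2 called 11454 genes on this scale (73.2% of those tested called higher), 2 of them members, Il18r1 and Il18rap. The lowest FDR among the members was 0.0773, for Il18rap, whose groups overlapped at 12.8 in CD4IKK1 replicate 3 and 18.2 in CD4cre replicate 3. For Ifng, where the median per 1000 TCR counts was 50.0 in CD4IKK1 and 174 in CD4cre, the groups overlapped and the FDR was 0.64, with an SE of 2.14 on the log2 scale. No member separated the groups per TCR count, against 33.3% of all genes that did so upwards and 0.192% downwards.

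A single pair of libraries had similar TCR counts in these groups, CD4cre replicate 3 with 12558 and CD4IKK1 replicate 3 with 11413. This pair was chosen after the values were seen and allows no test. Cd4 had 1145 and 1219 counts. Tbx21 had 560 and 230 counts, Ifng 2189 and 571, Stat4 327 and 133, Il18r1 203 and 74, Il12rb2 62 and 8 and Runx3 21 and 3, all lower in the knockout library, by ratios of CPM of 0.146 to 0.465. Cxcr3 (516 and 715 counts) and Il12rb1 (63 and 160 counts) were higher in the knockout library, by ratios of 1.57 and 2.88. Il18rap had 228 and 146 counts, a ratio of 0.726.

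CD4NIK was compared with CD4cre, the same control libraries, to ask what loss of NIK changed. Most Th1 genes rose. Of the 9 members 7 were called higher, 0 lower, beside 10.4% of the 15209 genes tested called higher and 6.99% called lower. Cxcr3 rose most, from 54.3 ± 28.7 CPM (SD, n = 3) in CD4cre to 578 ± 131 CPM (SD, n = 3) in CD4NIK, a log2 fold change of 3.40 ± 0.41 (SE, edgeR FDR 0.00357). Il12rb1 rose from 5.81 ± 3.08 to 40.3 ± 8.78 CPM (2.77 ± 0.43, FDR 0.00752) and Stat4 from 31.5 ± 19.0 to 198 ± 37.3 CPM (2.64 ± 0.41, FDR 0.00752). Tbx21 rose from 37.4 ± 12.2 to 196 ± 48.0 CPM (2.37 ± 0.30, FDR 0.00401), Il18r1 from 13.3 ± 2.93 to 61.4 ± 31.8 CPM (2.20 ± 0.40, FDR 0.0118), Ifng from 203 ± 140 to 907 ± 150 CPM (2.15 ± 0.43, FDR 0.0165) and Il12rb2 from 3.93 ± 1.91 to 17.0 ± 7.95 CPM (2.10 ± 0.53, FDR 0.0283). Il18rap, at 10.3 ± 1.89 and 11.5 ± 4.90 CPM, had a log2 fold change of 0.13 ± 0.41 (FDR 0.837), and Runx3, at 1.09 ± 0.133 and 2.93 ± 1.97 CPM, one of 1.40 ± 0.73 (FDR 0.200). The median over the members was 2.20, beside -0.02 over all genes. All members but Il18rap, 8 in all, were higher in every CD4NIK library than in every CD4cre library, as were 23.0% of all genes tested.

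The T cell receptor genes rose by a similar amount in the same libraries. Trac rose by 2.74 ± 0.35 on the log2 scale (edgeR FDR 0.00416) and Cd4 by 2.49 ± 0.22 (FDR 0.0017), within the range of the called Th1 genes. Of 7 TCR and CD3 genes 6 were called higher, with a median of 2.13 on the log2 scale, and of 10 other T cell markers 7 were. Leaving out 1 library at a time, the 5 called members other than Ifng and Il12rb2 were called in all 6 fits. Ifng was called in 3, with an FDR of 0.0504 to 0.0589 without CD4cre replicate 2 or 3 or CD4NIK replicate 3, and Il12rb2 in 2, with an FDR of 0.056 to 0.0878 without CD4cre replicate 2 or 3 or CD4NIK replicate 1 or 3. The value of Ifng was 2.87 without CD4cre replicate 1, and that of Runx3, called in none of these fits, was 0.76 without CD4NIK replicate 2. With the CD4IKK1 libraries added to the fit, only 1 member, Il18r1, was called, beside 5.23% of genes called higher.

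Relative to TCR constant counts most of these differences were near 0. The log2 fold change was 0.04 for Tbx21, 0.03 for Ifng, 0.01 for Il12rb2, 0.12 for Il18r1, 0.52 for Stat4, 0.60 for Il12rb1 and -0.89 for Runx3, with SEs of 0.52 to 1.04, and none of these was called. Some moved with 1 library: without CD4NIK replicate 1, Il12rb2 was at -0.85, Il18r1 at -0.88 and Stat4 at 0.20, also uncalled. Cxcr3 was called higher (1.22 ± 0.52, SE, edgeR FDR 0.0431), at 116 ± 11.1 per 1000 TCR counts (SD, n = 3) in CD4NIK and 50.1 ± 9.68 (SD, n = 3) in CD4cre. Of all genes 0.552% were called higher on this scale, and 1.16% were higher in every CD4NIK library, as Cxcr3 was. Il18rap was called lower (-2.07 ± 0.69, FDR 0.0119), at 2.68 ± 2.10 against 11.3 ± 5.97 per 1000 TCR counts, a direction it had in common with 68.7% of all genes, whose median was -2.33, and 72.7% were lower in every CD4NIK library, as Il18rap was. Both calls were sensitive to single libraries. Cxcr3 kept its call in 1 of 6 fits that left out 1 library (without CD4NIK replicate 1, FDR 0.0464, the others up to 0.144). Il18rap lost its call without CD4cre replicate 3 or CD4NIK replicate 2 or 3 (FDR 0.059 to 0.0696), and neither was called with all 11 libraries in the fit. The value of Il18rap ran from -2.92 without CD4NIK replicate 1 to -1.55 without CD4cre replicate 3.

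**Figure D3:**
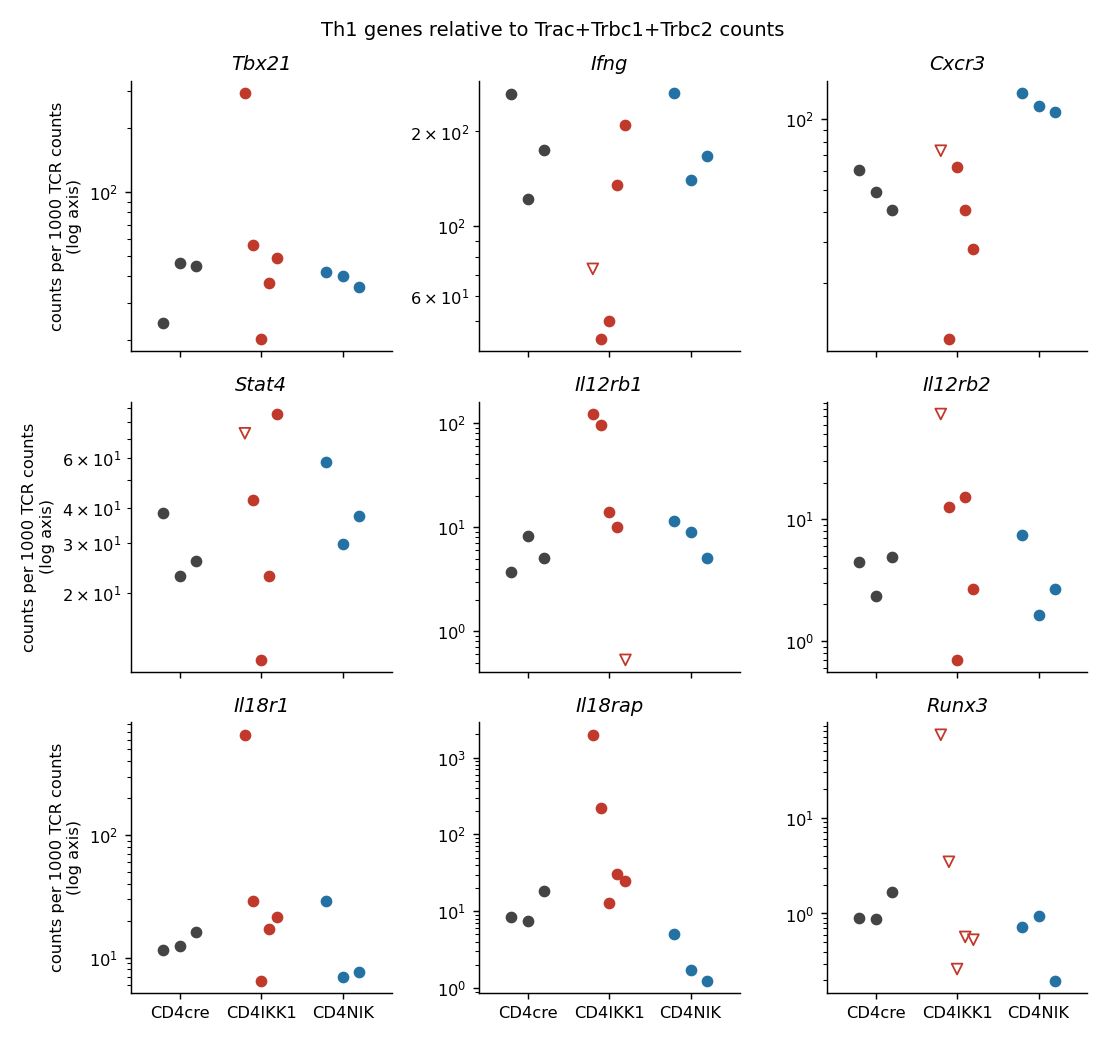
Counts of each Th1 gene per 1000 summed Trac, Trbc1 and Trbc2 counts (vertical, log axis, scaled per gene) in the 11 libraries of CD4cre, CD4IKK1 and CD4NIK, with replicates from left to right in number order. Open triangles are libraries with at most 3 counts of the gene, drawn at the level that 3 counts would have. Cxcr3 in CD4NIK lies above all CD4cre points, Il18rap in CD4NIK lies below them, and the CD4IKK1 libraries scatter most.

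The knockouts were also compared with each other, in 1 fit over all 11 libraries. Here 8 of the 9 members were called lower in CD4IKK1 and 0 higher, beside 18.5% of 16546 genes called lower and 14.8% called higher. Cxcr3 had a log2 fold change of -5.61 ± 1.30 (SE, edgeR FDR 0.00701), with means of 11.8 ± 16.7 CPM (SD, n = 5) and 578 ± 131 CPM (SD, n = 3). Ifng was at -5.20 ± 1.28 (FDR 0.0095), Stat4 at -4.72 ± 1.07 (FDR 0.00631) and Tbx21 at -4.67 ± 0.71 (FDR 6.2e-04). The receptor chains Il18r1 (-4.15 ± 0.47, FDR 8.8e-05), Il12rb2 (-3.88 ± 0.97, FDR 0.00672) and Il12rb1 (-3.61 ± 0.95, FDR 0.0102) were lower as well, and Runx3 was called at FDR 0.00245, its fold given above as a bound. Il18rap was the exception, at a log2 fold change of -0.59 ± 0.36 (FDR 0.215). The median over the members was -4.67, or -4.15 with Runx3 at its bound, beside 0.06 over all genes. General T cell transcripts moved with them, 7 of 7 TCR and CD3 genes called lower with a median of -4.11 and 8 of 10 other T cell markers with a median of -3.89, and of 7 kidney tubule markers 3 were called lower, with a median of -4.04. Of 13 macrophage, monocyte and dendritic cell markers 6 were called lower and 0 higher, with a median of -1.93. The neuronal markers went the other way, 8 of 8 called higher with a median of 1.52. The same 8 members were lower in every CD4IKK1 library than in every CD4NIK library, as were 24.6% of all genes, and they were called in all 8 fits that left out 1 library. Some values moved in these fits. Cxcr3 was at -6.95 and Il12rb1 at -4.4 without CD4IKK1 replicate 3, Il12rb2 at -5.27 without CD4IKK1 replicate 4 and Stat4 at -5.67 without CD4IKK1 replicate 5. Without the libraries under 1000 TCR counts 8 members were again called, beside 17.1% of genes called lower.

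Per TCR count the knockouts differed in fewer of these genes. Only Il18rap was called, higher in CD4IKK1 by 7.37 ± 2.66 on the log2 scale (SE, edgeR FDR 0.00811), as were 87.4% of all genes, whose median was 8.44, while 0.29% were called lower. Il18rap was also higher in every CD4IKK1 library than in every CD4NIK library, as were 71.9% of all genes. It was not called without CD4NIK replicate 2 or 3 (FDR 0.0529 and 0.0547), and its value fell to 4.74 without CD4IKK1 replicate 1. Cxcr3 was at -1.77 ± 1.88 (FDR 0.360) and was lower in every CD4IKK1 library than in every CD4NIK library, as were 0.852% of all genes. Without the 2 libraries under 1000 TCR counts its difference was -1.41 (FDR 0.0278) and it was called, beside 0.581% of genes called lower. Ifng (-1.09), Stat4 (-0.29), Il12rb2 (0.84), Tbx21 (1.14), Il12rb1 (2.41) and Il18r1 (3.26), with SEs of 1.81 to 2.23, were not called, and neither was Runx3. Without CD4IKK1 replicate 1, Tbx21 was at 0.038, Il12rb1 at 1.78 and Il18r1 at 0.33. Without CD4NIK replicate 1, Il18r1 was at 4.27 and Il12rb2 at 1.68, while Il12rb2 was at 0.24 without CD4IKK1 replicate 4. Without both libraries under 1000 TCR counts Tbx21 was at -0.16, Il12rb1 at -0.057, Il18r1 at 0.039 and Il18rap at 3.08 (FDR 0.000627), the last still called.

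**Figure D4:**
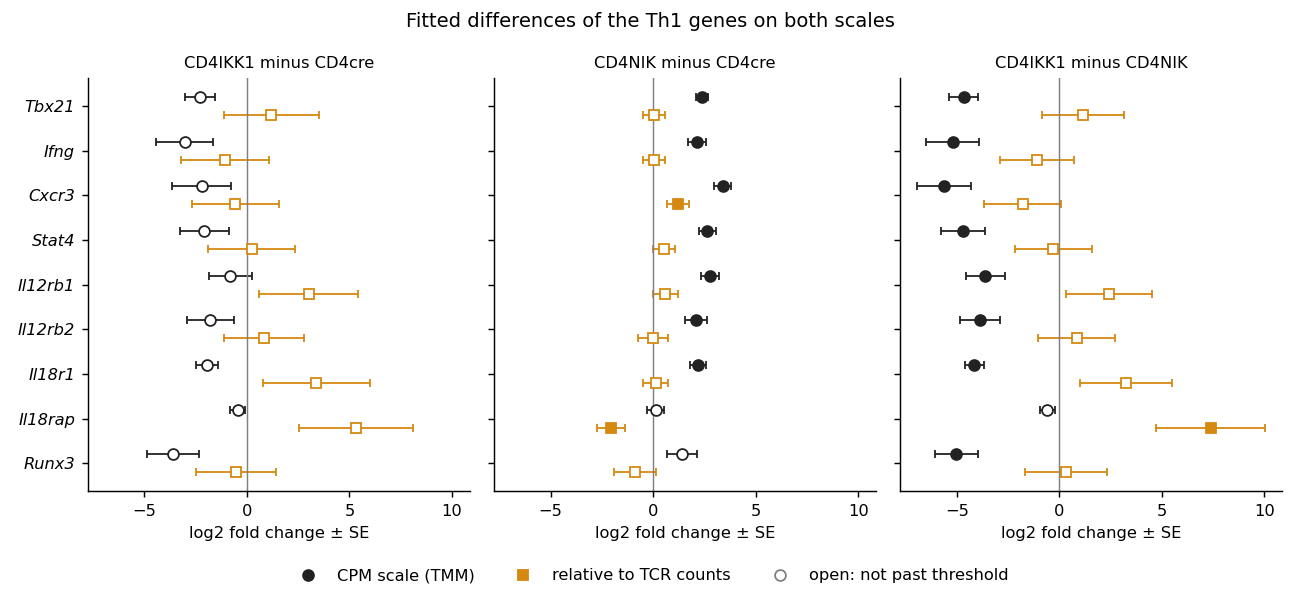
Fitted log2 fold changes (horizontal axis) with bars of ± 1 SE for the 9 Th1 genes in the 3 comparisons, on the CPM scale (black circles) and relative to TCR constant counts (orange squares). Filled symbols passed FDR 0.05 and 2-fold. On the CPM scale 7 genes are filled in CD4NIK minus CD4cre, 8 in CD4IKK1 minus CD4NIK and 0 in CD4IKK1 minus CD4cre. Fitted values of Runx3 in CD4IKK1 depend on the prior count.

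Proportions between members do not depend on library size. The count of Cxcr3 per count of Tbx21 was 3.06, 2.81 and 3.00 in CD4NIK, 2.52, 1.05 and 0.921 in CD4cre, and 0.0833, 0.204, 3.11, 1.11 and 0.577 in CD4IKK1. All CD4NIK values were above all CD4cre values, with 1 CD4IKK1 library above them. How many other pairs of genes do so was not tested. The count of Ifng per count of Tbx21 was 6.29, 3.48 and 4.69 in CD4NIK, 11.0, 2.63 and 3.91 in CD4cre and 0.0, 0.776, 2.48, 3.67 and 4.31 in CD4IKK1, with overlap between the groups. Stat4 per Tbx21 also overlapped, at 0.739 to 1.38, 0.496 to 1.6 and 0.0 to 1.76.

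Genes whose log2 CPM across the 11 libraries lay closest to Tbx21, by root-mean-square difference after centring, were Flt3l (0.24), Dennd2d (0.31), Il21r (0.38), 4930523C07Rik (0.39) and Slc17a9 (0.41), of 16545 genes compared. Those closest to Ifng were Gimap9 (0.50), Cd69 (0.60), Icos (0.64), Trac (0.66) and Hspa1a (0.75). Trac, the TCR α constant gene, was thus among the nearest to Ifng, while Cd69 and Icos encode surface proteins of activated T cells. The 11 libraries share the differences in TCR counts given above.

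Other genes of the interleukin-12, interleukin-18 and interferon-γ pathways were followed as a list of 23 fixed beside the members. In CD4NIK against CD4cre 8 of 20 tested were called higher and 0 lower on the CPM scale, beside 10.4% of all genes called higher, with a median log2 fold change of 1.17. With TCR counts as the denominator 1 was called higher and 8 lower, with a median of -1.15, where 0.552% of all genes were called higher and 68.7% lower with a median of -2.33. On the CPM scale Il27ra, a receptor chain for interleukin-27, rose by 3.68 ± 0.38 (SE, edgeR FDR 0.00234) and Myd88, the adaptor below the interleukin-18 receptor, by 1.92 ± 0.41 (FDR 0.0193). In CD4IKK1 against CD4NIK 12 of 21 were called lower on the CPM scale, beside 18.5% of all genes, among them Il27ra (-4.90) and Ifngr1 (-4.12), the ligand-binding chain of the interferon-γ receptor, and 1 was called higher. That gene, named because of its value, was Il18 (1.07 ± 0.32, FDR 0.0174), the ligand of the receptor above. Per TCR count, 0 of the 21 were called lower and 14 higher, with a median of 5.74, where 0.29% of all genes were called lower and 87.4% higher with a median of 8.44. In CD4IKK1 against CD4cre 16 of 21 had lower fitted levels and 0 were called by edgeR, with 8 at an unadjusted p under 0.05, as were 16.6% of all genes. Of these 8, Jak2 (FDR 0.272), a kinase below the interleukin-12 and interferon-γ receptors and named here because of its value, was on the higher side. Jak2 had 0 to 6 counts in CD4cre, with a median of 0, and 0 to 281 in CD4IKK1. The groups overlapped, and no fold is given for it. The direction turned on the TCR scale, where 0 of the 21 were lower and 21 higher, with a median of 4.74 beside 6.16 over all genes, 0 called by edgeR and 7 at an unadjusted p under 0.05. Il12b, the shared subunit of interleukins 12 and 23, had no count in CD4cre or CD4IKK1 and at most 1 in CD4NIK.

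Of 24 genes associated with Th1 effector function or T-bet, 12 of 23 tested were called higher in CD4NIK than in CD4cre and 0 lower on the CPM scale, beside 10.4% of all genes called higher, with a median of 2.08 on the log2 scale. With TCR counts as the denominator 2 were called higher and 5 lower, with a median of -0.18, where 0.552% of all genes were called higher and 68.7% lower with a median of -2.33. Those that rose most on the CPM scale were Ly6c2 (5.16 ± 1.21, SE, edgeR FDR 0.0245), Il2 (3.96 ± 0.62, FDR 0.00771) and Cxcr6, a chemokine receptor of tissue T cells (3.71 ± 0.53, FDR 0.0055). In CD4IKK1 against CD4NIK 18 of 23 were called lower on the CPM scale, beside 18.5% of all genes. They were led by Ly6c2 (-7.21), Cxcr6 (-6.52) and Il2 (-5.92, with a median of 2 counts in CD4IKK1). In addition, 1 was called higher, Twist1 (FDR 0.027), also named because of its value. Twist1 had 0, 2 and 13 counts in CD4NIK and 11 to 132 in CD4IKK1, so no fold is given for it. Per TCR count, 0 of the 23 were called lower and 5 higher, with a median of 1.54, where 0.29% of all genes were called lower and 87.4% higher with a median of 8.44. Against CD4cre 20 of 21 had lower fitted levels in CD4IKK1, with a median of -2.0, and 0 were called by edgeR, 3 having an unadjusted p under 0.05; 16.6% of all genes had one. On the TCR scale the direction was mixed in that comparison, with 7 of the 21 lower and 14 higher, a median of 0.71 beside 6.16 over all genes, 0 called by edgeR and 3 at an unadjusted p under 0.05. The CXCR3 ligand Cxcl10 rose in CD4NIK (2.46 ± 0.54, FDR 0.0208) and was lower in CD4IKK1 than in CD4NIK (-4.78 ± 1.61, FDR 0.0339) on the CPM scale. Its counts were 0 to 62 in CD4IKK1, with a median of 0, so the size of the second difference is uncertain. Neither call was present per TCR count, where Cxcl10 was at -0.068 (FDR 0.934) and -1.39 (FDR 0.462).

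Genes of other CD4+ T cell lineages and of other interferon-γ-producing cells were followed as well, on the CPM scale unless stated. Of 6 regulators of opposing lineages 2 were called higher in CD4NIK than in CD4cre, beside 10.4% of all genes, Gata3 (1.91 ± 0.39, SE, edgeR FDR 0.0173), the Th2 factor, and Maf (1.64 ± 0.37, FDR 0.0224). In CD4IKK1 against CD4NIK 5 of 6 were called lower, beside 18.5% of all genes, among them Foxp3 (-4.30), the regulatory T cell factor, and Gata3 (-4.00). Relative to TCR counts 0 of the 6 were called in CD4NIK against CD4cre, where 68.7% of all genes were called lower and 0.552% higher. In CD4IKK1 against CD4NIK 2 were called higher and 0 lower on that scale, where 87.4% of all genes were called higher and 0.29% lower. Natural killer (NK) cells and innate lymphoid cells also express several of the 9 members. Of the 9 NK markers, Ncr1, Klra8 and Klra7 had no count in any CD4cre or CD4IKK1 library and Klra8 had none in CD4NIK, and their sum was 14.6 to 28.7 CPM in CD4cre, 0.704 to 12.4 CPM in CD4IKK1 and 118 to 159 CPM in CD4NIK. Of 5 tested, 3 were called higher in CD4NIK than in CD4cre, beside the same 10.4%, Gzma (3.96 ± 0.85, FDR 0.0197), Cd244a (3.83 ± 1.00, FDR 0.0316) and Prf1 (1.85 ± 0.46, FDR 0.028), which activated T cells also express. Of the same 5, 4 were called lower in CD4IKK1 than in CD4NIK, beside the same 18.5%, with a median of -4.09. Relative to TCR counts 0 of the 5 were called in either comparison of CD4NIK. Of 3 CD8 and gamma-delta T cell genes, 0 were called in CD4NIK against CD4cre on either scale. In CD4IKK1 against CD4NIK 2 of these 3 were called lower on the CPM scale (18.5% of all genes), and 1 lower and 1 higher per TCR count (0.29% and 87.4% of all genes). For CD4IKK1 against CD4cre edgeR called 0 of 5 regulators, 0 of 5 NK markers and 0 of 2 CD8 and gamma-delta genes on either scale, with 2, 2 and 0 at an unadjusted p under 0.05 on the CPM scale and 0, 1 and 0 per TCR count. The part of NK cells in the levels of the Th1 genes was not tested.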

How the data were processed

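The authors enriched and sorted renal CD4+ T cells, amplified the RNA with a SMARTer kit, trimmed reads with Trimmomatic and quantified transcripts with kallisto. The methods name GRCm39 and the submitters' processing notes mm10, so the build of the counts is unsettled. The deposited values are estimated counts per gene symbol, not normalized, which were rounded here to whole numbers. Of the 35814 symbols 93.6% matched GENCODE M39, used for names, lengths and positions. Groups came from the labels, which call the libraries biological replicates, and 0 of 55 pairs of libraries were identical.

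Genes passing filterByExpr were tested with edgeR 4.0.16 (robust quasi-likelihood F test, R 4.3.3), with TMM factors or with library size set to the Trac, Trbc1 and Trbc2 counts. FDR is Benjamini-Hochberg adjusted over all genes tested. Both comparisons with CD4cre used their own groups. Alternatives were DESeq2 1.42.0, RLE factors, no filter, all 11 libraries in the fit, CD3 counts as denominator, a replicate block, each library left out and, added after seeing the data, both libraries under 1000 TCR counts left out. The scripts were tested on simulated data. Named genes were the members, the targeted genes, TCR genes, Cd4, up to 3 called genes per list and comparison by size of change, and the 5 genes nearest to Tbx21 and to Ifng. Some genes that this rule names are not reported here. Members and lists were chosen with earlier results of these data known. Promoters are from RefSeq (GRCm38.p6).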

Additional observations from a re-analysis of the deposited data

Results flagged for a closer look

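Within the 5 CD4IKK1 libraries, 6 of 18 sets of values (9 genes on 2 scales) had 1 library beyond Dixon's critical value of 0.71 for the gap to its nearest neighbour over the range, a rule that chance meets in about 1 of 20 independent sets of normally distributed values. These sets are not independent, since those relative to TCR counts share 1 denominator per library. Their values were also not log-transformed, and in all 6 the far library was the highest. Their number is therefore not read against chance. On the scale of counts per 1000 TCR constant counts, replicate 1 was the far library for Tbx21 (292.7, the others at 20.15 to 56.45), for Il18r1 (658.5, the others at 6.484 to 28.8) and for Il18rap (1976, the others at 12.79 to 222.4). That library had 41 TCR counts, against 868 to 11413 in the other CD4IKK1 libraries, and the counts behind these values were 12, 27 and 81. Runx3 was far in replicate 2 (3.456, the others at 0.0 to 0.3544), a value of 3 counts over 868 TCR counts, at the floor.

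On the CPM scale, Cxcr3 was far in replicate 3 (40.56 CPM, the others at 0.06402 to 10.72 CPM), which had 11413 TCR counts, the most of this group. Il12rb2 was far in replicate 4 (3.971 CPM, the others at 0.0 to 0.6744 CPM), from 80 counts, and that library had 5277 TCR counts.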

How the results depend on the processing

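On the CPM scale no member changed direction under an alternative, except Il18rap in CD4NIK against CD4cre (-0.25 to 0.35 with 1 library left out, below 0 without CD4NIK replicate 1). The count of genes called in CD4IKK1 against CD4cre, 0 with edgeR, was 486 with DESeq2 (2 members), 1 with RLE factors, 48 with no filter, 129 with 11 libraries in the fit, 36 without the libraries under 1000 TCR counts and 0 to 23 with 1 library left out (0 members, the most genes without CD4IKK1 replicate 4, with 2, 4 and 9 without CD4cre replicate 3 and CD4IKK1 replicates 1 and 3). In CD4NIK against CD4cre, 1 member was called with 11 libraries in the fit. With 1 library left out 674 to 3468 genes and 5 to 7 members were called, with 1001, 859, 918 and 674 genes without CD4cre replicates 2 and 3 and CD4NIK replicates 2 and 3, and in CD4IKK1 against CD4NIK 4116 to 5556 genes and 8 members. Of the single members' values on this scale, 144 kept direction and call under the other settings and 190 with 1 library left out, while 7 and 7 lost the call and 2 gained it. The cause of these changes was not tested.

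Relative to TCR counts, CD4IKK1 against CD4cre gave 11454 genes and 2 members with DESeq2, 12609 and 1 with 11 libraries in the fit, 3800 without the libraries under 1000 TCR counts, and 0 to 11872 genes and 0 to 1 member with 1 library left out (25 genes without CD4IKK1 replicate 1, the most, with Il18rap, without CD4IKK1 replicate 3). CD4NIK against CD4cre gave 1 member with no filter, 0 genes and 0 members with 11 libraries in the fit, and 8196 to 10954 genes and 0 to 2 members with 1 left out. CD4IKK1 against CD4NIK gave 7366 genes and 2 members with DESeq2, 2 members without the libraries under 1000 TCR counts, and 11276 to 14775 genes and 0 to 1 member with 1 left out. Some log2 fold changes changed sign. In CD4IKK1 against CD4cre these were Runx3 (0.024, DESeq2), Tbx21 (-0.12, without the libraries under 1000 TCR counts) and Stat4 (-0.48 to 0.48 with 1 library left out, below 0 without CD4IKK1 replicate 5). In CD4IKK1 against CD4NIK they were Tbx21 (-0.16), Il12rb1 (-0.057) and Runx3 (-1.53) without the libraries under 1000 TCR counts, and, with 1 library left out, Runx3 (-1.54 to 0.82) and Stat4 (-0.99 to 0.018). In CD4NIK against CD4cre they were, with 1 library left out, Tbx21 (-0.21 to 0.20), Ifng (-0.28 to 0.36), Il12rb2 (-0.85 to 0.38) and Il18r1 (-0.88 to 0.45), the last pair lowest without CD4NIK replicate 1. Again the cause was not tested. The Runx3 values depend on the prior count, since Runx3 had at most 3 counts in each CD4IKK1 library, and no direction is read from them.

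Replicate numbers did not pair the samples: deviations of same-numbered libraries correlated at -0.089 to 0.077 over 9 pairs, 0 of them above 0.1. With a replicate block, 3 genes were called in CD4IKK1 against CD4cre, 1185 in CD4NIK against CD4cre (995 higher, 190 lower, against 1586 and 1063 without it), and 7 members in CD4IKK1 against CD4NIK, where Cxcr3 (-6.94) was at FDR 0.0546. Relative to TCR counts the block left 1 member called in CD4NIK against CD4cre and turned Il12rb2 (-0.21) and Il18r1 (-0.23), and it turned Stat4 (-0.99) and Il12rb2 (-0.63) in CD4IKK1 against CD4cre. With 41 TCR counts in CD4IKK1 replicate 1, a member under 73.2 per 1000 TCR counts was not detectable there.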
